A study of Homo sapiens with 6 samples.

Results

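The late-numbered human miRNAs are the rows of the table whose miRBase number is 1000 or more, and they were chosen by name alone, without use of a measured value. They made up 266 of the 832 miRNAs in the table, beside 516 miRNAs with a lower miRBase number and 50 predicted miRNAs without a miRBase name. Small RNA libraries came from extracellular vesicles (EVs) secreted by MDA-MB-231, which is a triple-negative line of human breast cancer. One group was EVs of the wild-type line (231 EV, n = 3) and the other was EVs of the same line after knockdown of ACO1 (231/ACO1 KD EV, n = 3). ACO1 is the cytosolic aconitase, which also acts as an iron-responsive RNA binding protein, and the comparison asks which miRNAs in secreted EVs depend on it. Both groups were grown in the same serum-containing medium, and EVs were pelleted by ultracentrifugation from EV-free medium of near-confluent cells, without a density gradient that the labels name. The labels do not say whether libraries of a group came from separate cultures, so p-values measure only the spread between these libraries. In the edgeR tests below that spread was pooled over all miRNAs, so it is not that of each miRNA alone. These libraries hold no mRNA, so the level of ACO1 itself was not checked here. Late-numbered miRNAs include no marker that would check the cell line.

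A miRNA is a short RNA cut by Dicer from one or both arms (5p and 3p) of a hairpin, and its seed, bases 2 to 8, pairs with target mRNAs. miRBase numbers names in order of entry, so high numbers were given mostly in the years of deep sequencing, when miRNAs of low abundance came within reach. Some late entries lie inside or resemble other RNA genes, such as snoRNAs, tRNAs or mitochondrial RNAs, and reads of those RNAs can carry the same letters. Several late-numbered miRNAs, miR-1246 above all, are often described in EVs and serum of cancer patients.

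The sequences below are those on which the results turn, copied from RefSeq (GRCh38.p14), with the seed in capitals and positions counted from 1. The first set is the abundant late-numbered miRNAs and the one that passed the test with a sequence, miR-4449. Host genes are from GENCODE release 29, and an exon is an exon of any transcript of the gene.
hsa-miR-1307-3p: aCUCGGCGuggcgucggucgug, at chr10:103394301-103394322 on the minus strand, its hairpin in an exon of ATP5MD.
hsa-miR-1307-5p: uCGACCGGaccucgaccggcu, at chr10:103394341-103394361 on the minus strand, from the other arm of the same hairpin.
hsa-miR-3615: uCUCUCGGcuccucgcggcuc, at chr17:74748663-74748683 on the plus strand, in an exon of SLC9A3R1.
hsa-miR-1287-5p: uGCUGGAUcagugguucgaguc, at chr10:98395271-98395292 on the minus strand, in an exon of PYROXD2.
hsa-miR-3065-5p: uCAACAAAaucacugaugcugga, at chr17:81125886-81125908 on the plus strand, opposite the MIR338 hairpin.
hsa-miR-3065-3p: uCAGCACCaggauauuguuggag, at chr17:81125926-81125948 on the plus strand, from the other arm of the same hairpin.
hsa-miR-1468-5p: cUCCGUUUgccuguuucgcug, at chrX:63786055-63786075 on the minus strand.
hsa-miR-4449: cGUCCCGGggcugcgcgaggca, at chr4:52712720-52712741 on the plus strand, in an intron of the long non-coding RNA gene DANCR.

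The second set is late-numbered miRNAs whose letters are also found whole in another RNA, together with miR-1290, which is often named beside miR-1246.
hsa-miR-12136: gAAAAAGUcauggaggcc, at chr1:632668-632685 on the minus strand, its hairpin opposite a nuclear pseudogene of mitochondrial COX1 (MTCO1P12).
hsa-miR-4485-3p: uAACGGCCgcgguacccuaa, at chr11:10508277-10508296 on the minus strand, in an exon of MTRNR2L8, a nuclear copy of a mitochondrial rRNA stretch.
hsa-miR-4284: gGGCUCACaucaccccau, at chr7:73711327-73711344 on the plus strand, opposite an intron of STX1A.
hsa-miR-1973: aCCGUGCAaagguagcaua, at chr4:116299750-116299768 on the plus strand.
hsa-miR-1248: aCCUUCUUguauaagcacugugcuaaa, at chr3:186786675-186786701 on the plus strand, in the snoRNA gene SNORA81 within EIF4A2.
hsa-miR-1246: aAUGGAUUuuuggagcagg, at chr2:176601024-176601042 on the minus strand, in no other annotated gene.
hsa-miR-1290: uGGAUUUUuggaucaggga, at chr1:18897078-18897096 on the minus strand.

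The 266 late-numbered miRNAs were 31.97% of the rows and held 3820 counts, 0.353% of all counts, against 98.8% on the lower-numbered miRNAs. A count is the number of reads on a miRNA. The total counts of all miRNAs ranged from 224948 to 230562 in 231 EV. In replicates 1, 2 and 3 of 231/ACO1 KD EV they were 175924, 67873 and 157322. The knockdown group thus held the shallowest library, replicate 2, in which a single count was worth 14.7 TPM, against 4.34 to 4.45 TPM in 231 EV. TPM is here the count scaled to the same sum in every library, with no length term.

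Most late-numbered miRNAs were seen rarely. Of the 266, 138 were detected in 1 library, 45 in 2, 24 in 3, 17 in 4, 16 in 5 and 26 in all 6. A single read in the whole series was all that 102 of them had, 38.3% against 10.9% of the lower-numbered miRNAs. Only 9.77% were found in all 6 libraries, against 55.6% of the lower-numbered, and their median total was 2 counts against 25.5. There were 43 with 10 or more counts in total and 7 with 100 or more. A total of 102 were seen in 231 EV alone and 64 in 231/ACO1 KD EV alone, against 56 and 39 of the 516 lower-numbered miRNAs. The highest of these late-numbered miRNAs held just 15 and 7 counts over all libraries. The 231 EV group was also deeper, with 680516 counts in total against 401119. The larger number seen there alone therefore cannot be read as a group difference.

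The number detected was lowest in the shallowest library. It was 117, 109 and 115 in replicates 1, 2 and 3 of 231 EV, against 96, 59 and 108 in those of 231/ACO1 KD EV. The groups did not overlap. Among the deeper libraries the number did not follow the total count, as the deepest of 231 EV, replicate 2, had the fewest of its group, and replicate 3 of the knockdown group had more than the deeper replicate 1. The means were 114 ± 4.16 and 87.7 ± 25.5 (SD, n = 3), with a two-sided exact permutation p of 0.1, the smallest that 3 libraries against 3 can give. When every library was thinned to 67873 counts, the expected numbers were 64.6, 60.7 and 59.5 in 231 EV, against 60.03, 59.0 and 70.1 in 231/ACO1 KD EV. The groups then overlapped, with means of 61.6 ± 2.64 and 63.1 ± 6.15 (exact permutation p = 0.9, n = 3). At this depth the highest library was 231/ACO1 KD EV replicate 3, and without it the difference between the group means turned from 1.47 to -2.07 miRNAs. For the lower-numbered miRNAs the thinned means were 324 ± 6.05 and 337 ± 7.20 (exact permutation p = 0.2, n = 3).

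Summed over all 266, late-numbered miRNAs took 792, 717 and 773 counts in 231 EV, against 546, 342 and 650 in 231/ACO1 KD EV. As a share of the library this was 0.352% (95% Wilson interval 0.328 to 0.377), 0.311% (0.289 to 0.335) and 0.344% (0.320 to 0.369) in 231 EV. In 231/ACO1 KD EV it was 0.310% (0.285 to 0.338), 0.504% (0.453 to 0.560) and 0.413% (0.383 to 0.446). The intervals cover counting error only. The knockdown libraries thus spanned a range that held all of the 231 EV libraries, with the highest share in the shallowest library. The means were 0.336% ± 0.0217 and 0.409% ± 0.0968 (SD, n = 3), with an exact permutation p of 0.4. The direction depended on the denominator: with hsa-miR-21-5p, the most abundant miRNA of the table, left out of the total, the means were 0.479% and 0.477%. Whether less of a miRNA per EV or fewer EVs of one kind lie behind a lower level cannot be told apart in such bulk libraries.

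By number, names from 1000 to below 2000 held 54.5% of the late-numbered counts on 61 names, led by miR-1307-3p. Names from 3000 to below 4000 followed with 19.5% on 74 names, led by miR-3615, and names from 4000 to below 5000 with 9.29% on 44 names, led by miR-4449. Numbers of 10000 and above held 9.82% on just 7 names, of which miR-12136 alone held 93.3%. The 44 names from 6000 to below 7000 held 2.57%, with a median total of 1 count, and miR-6529-5p had 30 of their 98 counts. Within each of these 8 ranges the groups overlapped, and the widest spread between libraries was that of the highest numbers. Their share was 0.0342%, 0.0247% and 0.0338% in 231 EV, against 0.0176%, 0.155% and 0.0184% in 231/ACO1 KD EV.

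**Figure D1:**
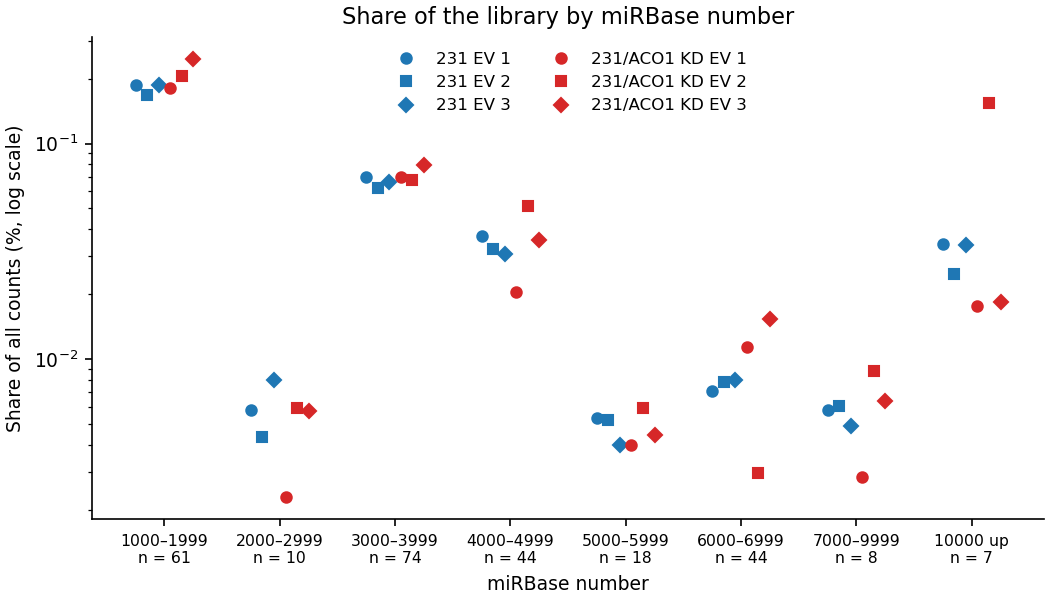
Share of all counts of a library (y axis, %, log scale) held by late-numbered miRNAs of 8 ranges of miRBase number (x axis, n names each), 1 symbol per library. Numbers from 1000 to below 2000 lie highest in all 6 libraries, between 0.168% and 0.248%, and numbers of 10000 up reach 0.155% in 231/ACO1 KD EV replicate 2 against 0.0176% to 0.0342% elsewhere.

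The 12 late-numbered miRNAs of highest mean TPM held 62.8% to 73.7% of the late-numbered counts of a library. miR-1307, cut from an exonic hairpin of ATP5MD, a small subunit of mitochondrial ATP synthase, led with both arms. miR-1307-3p stood at 711, 547 and 840 TPM in 231 EV, against 699, 693 and 1004 TPM in 231/ACO1 KD EV, from 47 to 189 counts. miR-1307-5p stood at 382, 364 and 298 TPM in 231 EV, against 381, 442 and 540 TPM in 231/ACO1 KD EV. The groups overlapped for both arms, and the log2 fold changes of 231/ACO1 KD EV against 231 EV were -0.15 (SE 0.22) and 0.04 (SE 0.26). Their adjusted p by the quasi-likelihood test of edgeR, adjusted by Benjamini-Hochberg over all 517 miRNAs tested, was 0.799 and 0.956. The arms together made up 29.3% to 33.1% of the late-numbered counts in 231 EV, against 22.5% to 37.4% in 231/ACO1 KD EV.

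The 3p arm of miR-1307 was the larger in all 6 libraries. It took 65.0%, 60.0% and 73.8% of the hairpin's counts in 231 EV, against 64.7%, 61.0% and 65.0% in 231/ACO1 KD EV. The means were 66.3% ± 6.998 and 63.6% ± 2.22 (SD, n = 3; exact permutation p = 0.7), and the groups overlapped. Within 231 EV the share differed beyond counting error, as the 95% Wilson intervals of replicate 2 (53.3 to 66.4) and replicate 3 (68.1 to 78.8) did not meet. Both arms were listed for 27 late-numbered hairpins. Others were one-sided: miR-1287 had 172 counts on the 5p arm against 1 on the 3p, miR-1296 71 against 1 and miR-1306 50 against 5, while miR-1180 had 2 on the 5p arm against 54 on the 3p. miR-3065 lay between, with 142 counts on the 5p arm and 54 on the 3p. Its 3p share ranged from 13.9% to 43.2% in 231 EV and from 17.5% to 41.7% in 231/ACO1 KD EV, so no difference could be seen at this depth.

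Below miR-1307 came miRNAs of lower level. miR-3615, in an exon of the scaffold protein gene SLC9A3R1, had 151, 191 and 276 TPM in 231 EV, against 136, 162 and 324 TPM in 231/ACO1 KD EV. miR-1287-5p, from the PYROXD2 gene, had 169, 165 and 160 TPM in 231 EV, against 102, 133 and 210 TPM in 231/ACO1 KD EV. The 231 EV libraries of miR-1287-5p lay close together and inside the wider range of the knockdown libraries. miR-3065-5p had 142, 91.1 and 138 TPM in 231 EV, against 188, 162 and 89.0 TPM in 231/ACO1 KD EV, and miR-1468-5p 93.4, 91.1 and 71.1 against 114, 147 and 57.2 TPM. The groups overlapped for all of these, and the adjusted p in edgeR ranged from 0.479 for miR-1287-5p to 0.927 for miR-1468-5p.

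miR-1306-5p was the only one of the 12 whose groups did not overlap on the TPM scale. It had 40.0, 13.0 and 31.1 TPM in 231 EV, against 62.5, 58.9 and 102 TPM in 231/ACO1 KD EV, from 3 to 16 counts a library. All knockdown libraries were above all 231 EV libraries, but the log2 fold change of 1.09 (SE 0.57) did not pass edgeR's test (adjusted p = 0.267). miR-1296-5p and miR-3065-3p lay at 53.3 to 82.4 and 22.2 to 69.4 TPM in 231 EV and at 39.8 to 88.4 and 39.8 to 63.6 TPM in 231/ACO1 KD EV, with groups that overlapped. The ranking of neighbours in this list is loose: miR-3065-3p and miR-1306-5p had the same mean TPM to within their spread.

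**Figure D2:**
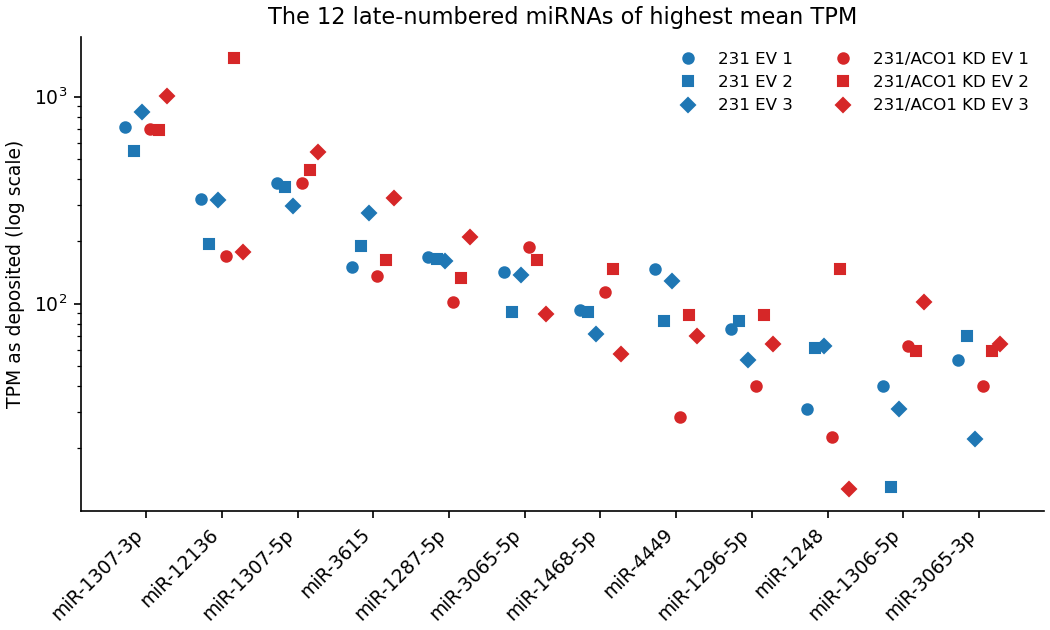
TPM in each library (y axis, log scale) of the 12 late-numbered miRNAs of highest mean TPM (x axis), blue for 231 EV and red for 231/ACO1 KD EV. Most columns overlap between the groups, miR-12136 reaches 1532 TPM in 231/ACO1 KD EV replicate 2 against 171 to 320 TPM elsewhere, and miR-4449 is lowest in 231/ACO1 KD EV replicate 1 at 28.4 TPM.

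miR-12136 had the highest mean TPM after miR-1307-3p, but a single library set it there. It had 72, 45 and 71 counts in 231 EV, against 30, 104 and 28 in 231/ACO1 KD EV. On the TPM scale this was 320, 195 and 316 against 171, 1532 and 178. Replicate 2 of the knockdown group, the shallowest library, was thus above all others, while replicates 1 and 3 were below all of 231 EV. The log2 fold change was 0.63 (SE 0.26, adjusted p = 0.121 in edgeR). Without that library it turned to -0.98 (adjusted p = 0.0265), and without replicate 1 or replicate 3 of the same group it was 1.12 (adjusted p = 0.000921) or 1.07 (adjusted p = 0.044). edgeR gave all miRNAs one shared spread, which is too small for a miRNA that varies this much, and with its robust option the adjusted p was 0.823. With library totals in place of TMM factors the log2 fold change was 1.03 (adjusted p = 0.00186).

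The 18 bases of miR-12136 are bases 1 to 18 of MT-TS1, a mitochondrial tRNA for serine, which is 69 bases long. Other late-numbered miRNAs also match a mitochondrial RNA without a mismatch. miR-4485-3p is bases 893 to 912 and miR-1973 bases 912 to 930 of MT-RNR2, the large mitochondrial rRNA of 1559 bases, and miR-4284 is bases 49 to 66 of MT-TF, the mitochondrial tRNA for phenylalanine, of 71 bases. Reads of the mitochondrial RNA and of the annotated nuclear hairpin have the same letters, so these counts cannot be assigned to one or the other. These 4, and the families of alike sequence below, were picked for description after their values were seen.

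The 4 that match mitochondrial RNA together had 356, 256 and 356 TPM in 231 EV, against 210, 1709 and 242 TPM in 231/ACO1 KD EV. They were 8.23% to 10.4% of the late-numbered counts in 231 EV, against 6.78%, 33.9% and 5.85% in 231/ACO1 KD EV. Replicate 2 of the knockdown group was 6.02 times the mean of the other 5 libraries. The exact permutation p was 1.0 (n = 3), and without that library the means were 322 and 226 TPM (exact permutation p = 0.2, the smallest that 3 against 2 can give). miR-4485-3p was also highest in that library, with 31.1, 39.0 and 17.8 TPM in 231 EV, against 28.4, 147 and 38.1 TPM in 231/ACO1 KD EV, but its other knockdown libraries lay within 231 EV. The sparse miR-4284 and miR-1973 had 2 and 0 counts there, against 0 to 4 and 1 to 3 in the other libraries. The 2 counts of miR-4284 were 29.5 TPM, its highest value, against 0 to 17.4 TPM elsewhere. Without miR-12136 the other 3 summed to 35.6, 60.7 and 40.0 TPM in 231 EV, against 39.8, 177 and 63.6 TPM in 231/ACO1 KD EV (exact permutation p = 0.3). In replicate 2 of the knockdown group the other late-numbered miRNAs, those without a match to another RNA or without a sequence, were at 3138 TPM, 1.02 times the mean of the other 5. The part of depth or RNA quality in this library was not tested.

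Of the 248 late-numbered miRNAs with a RefSeq sequence, 10 matched a mitochondrial RNA or a small non-miRNA transcript of GENCODE over their whole length, 4.03% against 0.857% of the 467 lower-numbered miRNAs. Nuclear tRNA genes were not among the transcripts searched. The 10 held 525 counts, 13.7% of those on late-numbered miRNAs, and 9 of them were tested for a group difference, of which none passed in edgeR or in limma on log2(TPM + 1), while miR-12136 and miR-3651 had an unadjusted p under 0.05 in edgeR. Over all miRNAs tested in edgeR 8.51% passed and 18.8% had such an unadjusted p, so a count of 0 among 9 is near that share. Besides the mitochondrial ones there were 5 with a match in a snoRNA or scaRNA, guide RNAs for the modification of other RNAs. miR-1248, which is bases 1 to 27 of SNORA81, had 7, 14 and 14 counts in 231 EV, against 4, 10 and 2 in 231/ACO1 KD EV. On the TPM scale its highest value was again in replicate 2 of the knockdown group, at 147 against 12.7 to 62.2 elsewhere. miR-1291, miR-1843, miR-3651 and miR-6516-5p, which match SNORA2C, SCARNA3, SNORA84 and SCARNA16, had 29, 15, 12 and 2 counts in all. The 5 summed to 102, 113 and 124 TPM in 231 EV, against 56.8, 177 and 63.6 TPM in 231/ACO1 KD EV, so the groups overlapped (exact permutation p = 0.9, n = 3). Without replicate 2 of the knockdown group they did not, with means of 113 and 60.2 TPM (exact permutation p = 0.2, the smallest that 3 against 2 can give).

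miR-1246 was all but missing. It had 0, 0 and 1 counts in 231 EV, against 2, 1 and 2 in 231/ACO1 KD EV, or 0, 0 and 4.44 against 11.4, 14.7 and 12.7 TPM. The groups did not overlap, but a count of 0 allows up to 13.3 and 13.0 TPM in 231 EV replicates 1 and 2, so a difference of this size was not detectable at this depth, and the edgeR test did not pass (adjusted p = 0.378). The 19 bases of miR-1246 are bases 94 to 112 of U2 snRNA, a core RNA of the spliceosome, in the copy of RNU2-1, and the authors removed reads matching other RNA classes in Rfam before matching to miRBase. Whether that step removed miR-1246 was not tested. miR-1290 and miR-1260a had 1 count each in the series, and miR-3613-5p had 3. miR-1260b, of the same seed as miR-1260a, had 10, 13 and 8 counts in 231 EV, against 10, 1 and 8 in 231/ACO1 KD EV, with groups that overlapped.

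A list of 16 miRNAs that lie in, or resemble in sequence, another RNA gene (U2, tRNA, snoRNA, rRNA spacer or mitochondrial rRNA) had 9 in the table with 235 counts. Of these 7 were tested and none passed in edgeR in either direction (1, miR-3651, at an unadjusted p under 0.05, and none in limma), against the same 8.51% and 18.8% over all, with a median log2 fold change of -0.32 against -0.03 over all 517 tested. Of 20 names of mirtrons, hairpins that are whole short introns and bypass Drosha, 5 were in the table with 18 counts in all, at most 6 each, and the 1 that was tested did not pass.

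For the change between groups, 83 of the 266 late-numbered miRNAs were seen in 3 or more of the 6 libraries and entered edgeR's test, and the others were too sparse to be tested. At an adjusted p under 0.05, 2 of the 83 passed (2.41%), against 44 of all 517 miRNAs tested (8.51%). Both were lower in 231/ACO1 KD EV, where the share over all miRNAs was 6.0%, and none was higher, where it was 2.51%. At an unadjusted p under 0.05 there were 8 (9.64%), against 18.8% over all, and miR-12136 and miR-4521 were the 2 of them that were higher. DESeq2 gave an adjusted p to 10 of the 83 and called none, against 17.4% of the 235 miRNAs to which it gave one. In limma on log2(TPM + 1) 2 of the 83 passed (2.41%), miR-10395-3p lower and miR-4521 higher, against 14.5% over all. On the TMM-scaled scale the groups did not overlap for 16 (19.3%), against 24.4% over all. Each of these shares was below those over all miRNAs. Among the 16, miR-10395-3p, miR-3679-5p and miR-5699-3p had counts in 231 EV alone, and miR-4521 and miR-3940-3p in 231/ACO1 KD EV alone. These entered the test only through that group, so that their groups did not overlap was fixed in advance. All but miR-3940-3p were also among the 8. The shares over all include them too.

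The shares followed counts. Of the 9 late-numbered miRNAs with a mean count of at least 10, 1 passed (11.1%), against 41 of 217 other miRNAs of that depth (18.9%). Of the 74 with fewer counts 1 passed (1.35%), against 1 of 217 others (0.461%). The median standard error of a log2 fold change was 0.32 for the 9 and 1.2 for the 74, so changes of the size seen in most of them could not be told from 0. The median log2 fold change of the 83 was -0.24, with 32 higher and 51 lower, against -0.03 over all. With library totals in place of TMM factors it was 0.09, with 47 higher and 36 lower, against 0.32 over all, so the balance of directions rested on the scaling while their median lay below that over all under both.

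miR-4449, whose hairpin lies in an intron of the lncRNA gene DANCR, fell. It had 33, 19 and 29 counts in 231 EV, against 5, 6 and 11 in 231/ACO1 KD EV, or 147, 82.4 and 129 TPM against 28.4, 88.4 and 69.9 TPM. On the TPM scale the groups met, as replicate 2 of the knockdown group was above replicate 2 of 231 EV, and after TMM scaling they did not overlap. The log2 fold change was -1.41 (SE 0.42, adjusted p = 0.0146 in edgeR). It was below 0 in each of 16 alternatives and passed in 9. It did not pass with library totals (-1.07, adjusted p = 0.0752), in DESeq2 (-1.36, adjusted p = 0.0698), or in limma with a pseudocount of 1 (adjusted p = 0.142) or 0.1 (0.194). Nor did it pass without 231 EV replicate 1 (adjusted p = 0.137), 231 EV replicate 3 (0.111) or 231/ACO1 KD EV replicate 1 (0.241).

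miR-10395-3p had 5, 6 and 4 counts in 231 EV and none in 231/ACO1 KD EV (22.2, 26.0 and 17.8 against 0 TPM). It passed edgeR's test with an adjusted p of 0.0234. It met the filter of at least 3 libraries only through 231 EV, the group where it was high. That the groups did not overlap is therefore no further support. Set against a floor of 3 counts over the knockdown group, with library totals, its 231 EV level was 2.95-fold higher. With 1 library left out this ratio ran from 1.66 to 3.23. The error of its 15 counts is not included, so the ratio is not a lower bound. The call held in 7 of 12 alternatives that gave an adjusted p. It was lost without 231/ACO1 KD EV replicate 1 (adjusted p = 0.119) or replicate 3 (0.0577), with a replicate block (0.07), without a filter (0.0525) and in limma on log2(TPM + 0.1) (0.0536). DESeq2 gave it no adjusted p, and with any 231 EV library left out too few libraries held a count for it to be tested.

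miR-4521 was the mirror of this, and was noticed after its values were seen. It had no count in 231 EV, against 3, 3 and 1 in 231/ACO1 KD EV, or 17.1, 44.2 and 6.36 TPM. It too met the filter only through the group where it was high. Set against a floor of 3 counts over the 231 EV group, its knockdown level was 3.96-fold higher. With 1 library left out this ratio ran from 2.62 to 5.58. The error of its 7 counts is again not included. Its adjusted p in edgeR was 0.0504, and in the 12 alternatives that gave it an adjusted p this ran from 0.0223 to 0.187. It passed in 4 of them (library totals, median-ratio factors, a filter on mean TPM and limma on log2(TPM + 1)) and in none that left out a library.

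**Figure D3:**
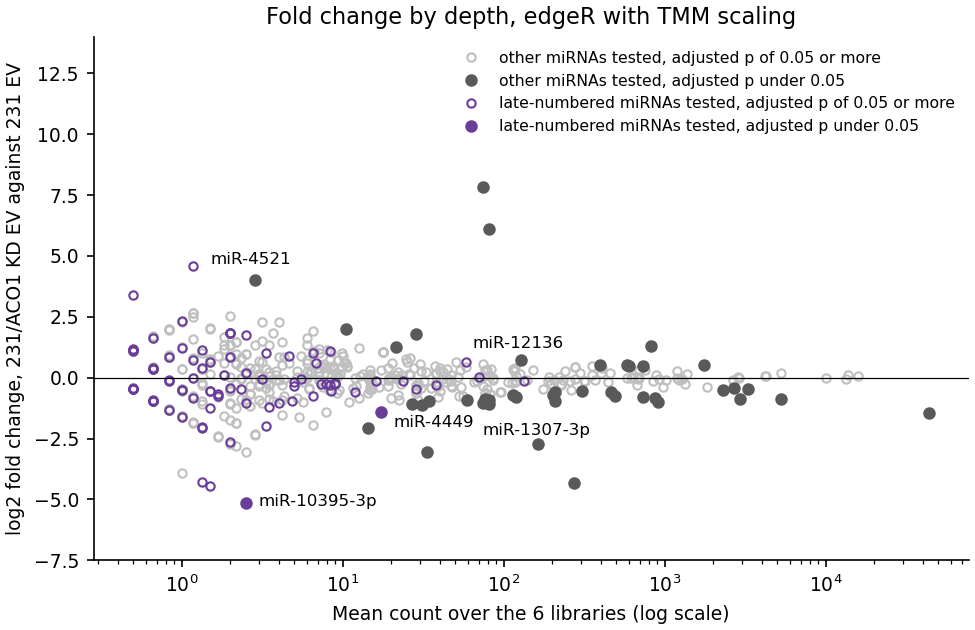
log2 fold change of 231/ACO1 KD EV against 231 EV (y axis) by mean count over the 6 libraries (x axis, log scale) for the 517 miRNAs tested in edgeR, purple for the 83 late-numbered miRNAs, filled where the adjusted p is under 0.05. Of the late-numbered, 74 lie under a mean count of 10, and the filled ones are miR-4449 at -1.41 and miR-10395-3p at -5.16, a fitted value for a miRNA at 0 in the knockdown libraries.

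Some late-numbered names cannot be told apart, or only by a base. miR-3689a-5p, miR-3689b-5p and miR-3689e have the same mature sequence and the same counts in every library, 1, 2 and 0 in 231 EV, against 5, 1 and 3 in 231/ACO1 KD EV, so the same reads stand in 3 rows and in 3 of the 16 miRNAs without overlap. miR-3689f, counted separately, differs from them by A10G and G13C, written as the base of miR-3689a-5p, the position from the 5′ end and the base of miR-3689f. It had 5, 3 and 4 counts in 231 EV, against 5, 5 and 6 in 231/ACO1 KD EV, or 22.2, 13.0 and 17.8 against 28.4, 73.7 and 38.1 TPM. Its groups did not overlap in TPM or after TMM scaling, so miR-3689f is also among the 16. It did not pass edgeR's test (adjusted p = 0.654). miR-1269a and miR-1269b, from hairpins on different chromosomes, share a seed and differ by G13A, the base of miR-1269a first.
hsa-miR-3689a-5p: uGUGAUAUcaugguuccuggga
hsa-miR-3689f: uGUGAUAUcgugcuuccuggga
hsa-miR-1269a: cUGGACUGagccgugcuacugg
hsa-miR-1269b: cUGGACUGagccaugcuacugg
miR-1269a had 3, 8 and 8 counts in 231 EV, against 5, 3 and 3 in 231/ACO1 KD EV, and miR-1269b had 7, 5 and 4 against 5, 7 and 11. Neither passed edgeR's test (adjusted p = 0.889 and 0.448), and reads with an error at the differing base could be counted on the wrong one.

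The late-numbered miRNAs differed from the lower-numbered in sequence. The 248 with a sequence had a median GC content of 58.3% (quartiles 45.5 and 65.0), against 45.5% (39.6 and 54.5) for 467 lower-numbered. A GC content above 70% was found in 40 (16.1%) against 6 (1.28%). The abundant ones spread widely, from 37.0% for miR-1248, 39.1% for miR-3065-5p and 57.1% for miR-1468-5p to 72.7% for miR-1307-3p and 81.8% for miR-4449. The median length was 22 bases in both sets, but 22 late-numbered miRNAs were shorter than 20 bases (8.87%) against 3 (0.642%), miR-12136 with 18 bases among them. The 248 had 236 different seeds, and 22 shared theirs with another late-numbered miRNA. A seed was shared with a lower-numbered miRNA of the table in 5 (2.02%), none of which had the counts to be tested. The letters CAUUG, which the study relates to binding of ACO1, were in 3 late-numbered miRNAs (1.21%), miR-1294, miR-1256 and miR-1179 with 3, 2 and 1 counts, against 18 lower-numbered (3.85%). None of the 3 could be tested.

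Their hairpins also lay in other places. Of 224 late-numbered miRNAs placed on GENCODE, 48 (21.4%) lay in an exon of a protein-coding gene on the same strand, against 20 of 427 lower-numbered (4.68%), and 109 (48.7%) in an intron of one, against 172 (40.3%). An exon of a long non-coding RNA gene held 1 (0.446%) against 62 (14.5%). Another hairpin lay within 10 kb on the same strand for 22 (9.82%), against 208 (48.7%). Opposite another hairpin, as miR-3065 lies opposite MIR338, were 11 (4.91%) against 17 (3.98%). These shares describe the names of the table, and miRNAs of one hairpin or cluster share a place.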

How the data were processed

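The authors trimmed 50-base single-end reads of NEBNext small RNA libraries, kept 18 to 32 bases, removed matches to Rfam and matched the rest to miRBase by BLAST. The processing notes name Bowtie2, StringTie and hg38. Raw counts of reads on each miRNA and TPM were deposited. The deposited TPM equals the count scaled to the same sum in every library to within 4.99e-05. No molecular identifiers are reported, so a count is a read.

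Counts were tested with edgeR 4.0.16 (R 4.3.3, quasi-likelihood test, TMM, Benjamini-Hochberg over all miRNAs tested) on miRNAs above 0 in at least 3 of 6 libraries. Alternatives used DESeq2 1.42.0, limma 3.58.1, other scalings, filters and libraries left out. Tests were checked on simulated counts with 1 spread for all miRNAs, for recovery of planted changes at a mean count of at least 10. That check required no recovery among sparser miRNAs and set no limit on false calls. Values per library were compared by two-sided exact permutation tests (scipy 1.17.1). Chi-square tests over all miRNAs found libraries of a group to differ beyond counting noise, so each library was treated as 1 sample. Over late-numbered miRNAs alone, 231 EV replicate 1 did not so differ from replicate 2 (chi-square p = 0.228) or replicate 3 (0.0874). Every other pair within a group did. Thinning gave expected numbers under the hypergeometric distribution. Mature sequences are from RefSeq, with 248 of 266 names matched.

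Named were the 12 of highest mean TPM, all with an adjusted p under 0.05, the 5 lower and 5 higher of smallest p with a mean count of at least 10 (only 2 were higher), and 11 names listed by hand, such as miR-1246. Members and lists were chosen with earlier results of these data known.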

Additional observations from a re-analysis of the deposited data

How the results depend on the processing

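With 16 alternatives, the number of late-numbered miRNAs past an adjusted p of 0.05 was 2 in the reported fit, 1 without a filter, 0 in DESeq2 (which gave an adjusted p to 10 of the 83), 0 in limma on log2(TPM + 0.1), and 0 to 3 with 1 library left out. The replicate numbers did not pair the libraries (correlations of deviations between -0.08 and 0.15), and with a replicate block 1 passed, miR-4449. The other alternatives gave 2 or 3. Direction changed with the setting: library totals called 1 lower (miR-10395-3p) and 2 higher (miR-4521 and miR-12136). Without 231/ACO1 KD EV replicate 1 only miR-12136 passed, as higher. All calls were lower with edgeR's robust option, with TMM factors computed without the 10 highest miRNAs, and without 231/ACO1 KD EV replicate 2. The difference in summed share, 0.0736 percentage points, was -0.00207 without hsa-miR-21-5p in the total and 0.0262 to 0.123 with 1 library left out. It was 0.0736 as the mean of differences within replicate numbers (replicate block). Leaving miR-12136 out of the sum, an alternative chosen after seeing the data, gave 0.0386. The difference in number detected, 1.47, was -26.0 without thinning, -5.32 when thinned to the fewest late-numbered counts, and -2.07 to 3.86 with 1 library left out.

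Of 14 single miRNAs, 7 changed sign under some alternative, none of them past the test in the reported fit. With library totals the log2 fold change was 0.20 for miR-1307-3p, 0.043 for miR-3615, 0.23 for miR-3065-5p, 0.13 for miR-3065-3p and 0.22 for miR-1468-5p. In limma with pseudocounts of 1 and 0.1 it was 0.19 and 0.19 for miR-1307-3p, 0.20 and 0.20 for miR-3065-5p, 0.28 and 0.29 for miR-3065-3p, and 0.22 and 0.22 for miR-1468-5p. With TMM factors computed without the 10 highest miRNAs it was -0.0034 for miR-1307-5p. With 1 library left out it ranged from -0.38 to 0.039 for miR-1307-3p, -0.14 to 0.18 for miR-1307-5p, -0.98 to 1.12 for miR-12136, -0.44 to 0.17 for miR-3065-5p, -0.52 to 0.15 for miR-3065-3p and -0.29 to 0.20 for miR-1468-5p. The causes were not tested. Depth limits every miRNA under about 10 counts, as 3 counts are 13.0 to 44.2 TPM.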
